A study of Mus musculus with 12 samples.

Results

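The genes described here belong to the response to interferon and were picked by symbol: the guanylate-binding proteins Gbp2, Gbp2b and Gbp3, the factors Irf1, Irf7 and Irf8, the IFIT proteins Ifit1 and Ifit3, the ubiquitin-like protein Isg15 and the chemokine Cxcl11. These are 10 genes with 1 spot each among the 23040 spots of the array. Of the 10, 4 had a value on all 12 arrays (Gbp2, Gbp2b, Irf1 and Irf8) and so belong to the 10762 features, 8707 of them named genes, on which the tests were run. The genes were chosen with ratios of these arrays in view, in particular those of WT 0GH against the other groups, so every comparison with WT 0GH is a description without a test.

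Interferons are secreted antiviral proteins that act through receptors coupled to JAK kinases and STAT factors. The STAT complexes and the interferon regulatory factors (IRF) bind response elements in the promoters of many genes, whose products restrict viruses and intracellular bacteria. The growth hormone receptor also signals through a JAK kinase, JAK2, and is known for activating STAT5.

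Total RNA of mouse samples in the green channel was hybridised to spotted arrays against a commercial embryonic RNA in the red channel, in a series described as a time course. The groups were NLS 1GH, NLS 0GH, WT 1GH and WT 0GH, with 3 arrays each that carry the letters b, c and d. The series concerns the nuclear growth hormone receptor, WT is read as wild type and NLS is the common abbreviation of nuclear localization signal. All titles carry a 10 after the receptor form, and human growth hormone at 100 ng/ml is given for all 12 samples, so the 0 and the 1 are used here as names and not as doses or hours. The labels give no cell type, vector, clone or culture for the letters, and p-values measure only the spread between these samples. Values are log2 ratios with the median of the tested features of each array set to 0, called ratios below. They are log2 of 1 channel over the other, and which channel is on top is not stated. Sample over reference is the likely direction after the sign is turned, because 37 of 41 genes of embryonic tissues then lie below the array median. If that reading is wrong, every sign below turns.

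Single spots on these arrays were noisy. Each array had a value for 15939 to 19700 spots, and between 7.85% and 19.5% of the 573 blank spots also had one, so a value does not by itself show that a transcript was present. The median ratio of these blank spots lay between -1.60 and 0.13 by array. For 333 genes with 2 spots on all arrays, the median absolute difference between the spots of a gene on the same array was 1.24. It includes any constant offset between the 2 spots, which would cancel in a comparison of groups. Of the 120 possible values of the 10 genes 28 were missing, 16 of them on the arrays of letter b, 9 on those of c and 3 on those of d. By group 6 were missing in NLS 1GH, 5 in NLS 0GH, 10 in WT 1GH and 7 in WT 0GH.

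Gbp2, Gbp2b and Gbp3 encode large GTPases that interferon gamma induces strongly and that assemble on the vacuoles of intracellular pathogens. In RefSeq (GRCm38.p6) the 3 genes lie in the order Gbp3, Gbp2b, Gbp2 on chromosome 3, with no other protein-coding gene between them. Their promoters are shown because Gbp2 and Gbp2b had their lowest mean in WT 0GH and Gbp3 did not. The 250 bases before each start were searched on both strands for the core of the interferon-stimulated response element that IRF factors bind (GAAA, any 2 bases, GAAA) and for the GAS element of STAT factors (TTC, any 3 bases, GAA). Capitals mark the response element core, found here on the reverse strand. The windows, all on the plus strand, are chr3:142620413-142620662 for Gbp2, chr3:142594597-142594846 for Gbp2b and chr3:142559794-142560043 for the upstream start of Gbp3.
Gbp2: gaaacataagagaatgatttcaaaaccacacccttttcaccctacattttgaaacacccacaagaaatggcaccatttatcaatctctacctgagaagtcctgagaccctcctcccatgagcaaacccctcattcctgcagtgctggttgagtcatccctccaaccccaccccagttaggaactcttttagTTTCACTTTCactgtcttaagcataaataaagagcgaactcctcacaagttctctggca
Gbp2b: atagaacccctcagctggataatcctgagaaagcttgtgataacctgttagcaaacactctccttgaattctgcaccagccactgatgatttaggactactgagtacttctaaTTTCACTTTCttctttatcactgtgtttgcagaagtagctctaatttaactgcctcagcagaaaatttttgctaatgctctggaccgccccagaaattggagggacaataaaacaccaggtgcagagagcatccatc
Gbp3: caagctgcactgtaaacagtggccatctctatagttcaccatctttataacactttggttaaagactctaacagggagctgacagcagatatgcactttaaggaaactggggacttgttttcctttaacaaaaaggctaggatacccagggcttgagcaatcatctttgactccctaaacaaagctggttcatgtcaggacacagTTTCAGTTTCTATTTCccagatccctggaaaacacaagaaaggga
Gbp2 and Gbp2b each held 1 core with the same 10 letters, TTTCACTTTC, which began 59 and 137 bases before the start. Gbp3 held 2 overlapping cores, TTTCAGTTTC and TTTCTATTTC. None of the 3 windows held the GAS letters. The core was present in 2.98% of 32851 promoter windows of this length and the GAS letters in 7.02%. Aligned over their length, the windows of Gbp2 and Gbp2b were 48.6% identical, against 52.8% for Gbp2b and Gbp3 and 51.6% for Gbp2 and Gbp3. The windows of the 2 starts of Gbp3 were 48.5% identical to each other. No share for unrelated windows was measured, so these values do not show that the promoters are alike.

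Gbp2 was far lower in WT 0GH than in the other groups. Its ratio was 1.56, -0.49 and -2.06 in NLS 1GH (letters b, c and d), -1.59, -1.36 and -0.81 in NLS 0GH, 0.0027, -2.17 and -1.61 in WT 1GH, and -4.60, -4.86 and -5.72 in WT 0GH. All 9 arrays of the other groups lay above all 3 of WT 0GH, with a gap between -2.17 and -4.60, while the other groups overlapped one another. Gbp2 was 1 of 4 genes with all 9 above all 3, which 0.242% of the 10762 features showed, and 0 of 4 had all 9 below, which 0.167% showed. Group means were -0.33 ± 1.81 in NLS 1GH, -1.26 ± 0.40 in NLS 0GH, -1.26 ± 1.13 in WT 1GH and -5.06 ± 0.59 in WT 0GH (SD, n = 3 each). The mean of the other 3 groups was higher than WT 0GH by 4.11 (limma SE 0.71). The difference was 3.80 for NLS 0GH over WT 0GH and 3.80 for WT 1GH over WT 0GH (SE 0.87 for each). By letter b, c and d it was 3.01, 3.49 and 4.91 between NLS 0GH and WT 0GH, and 4.60, 2.68 and 4.11 between WT 1GH and WT 0GH. These 2 comparisons share the WT 0GH arrays. Blank spots had quartiles of -1.15 and 0.32, -3.18 and 0.20, and -2.38 and 0.24 on WT 1GH (b, c and d). Gbp2 lay between them on each array. On WT 0GH the first quartiles of the blank spots were -1.13, -2.46 and -2.52, with Gbp2 below each. In NLS Gbp2 lay between the blank quartiles, except on NLS 1GH of letter b (above 0.31) and NLS 0GH of letter b (below -1.18). Values within the range of blank spots do not show that a transcript was present, nor that it was absent. The array median of the tested features, set to 0, also lay between the blank quartiles on each WT 1GH and WT 0GH array. A typical feature thus falls there too, and a ratio does not give the strength of the signal. In bulk samples fewer cells of a type and less RNA per cell cannot be told apart.

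Gbp2b, formerly called Gbp1, also had its lowest mean in WT 0GH. It stood at -0.20, -2.75 and -1.0 in NLS 1GH, -1.94, -2.93 and -0.76 in NLS 0GH, -0.59, -2.62 and -1.15 in WT 1GH, and -2.87, -5.05 and -3.90 in WT 0GH. Here 8 of the 9 other arrays lay above the highest WT 0GH array, and the exception was NLS 0GH of letter c. Without that array, or without WT 0GH of letter b, Gbp2b joined Gbp2 among the genes with no overlap. In NLS 0GH against WT 0GH 1 of 4 genes (Gbp2) was higher with no overlap, beside 4.66% of features, and 0 of 4 lower, beside 4.48%. In WT 1GH against WT 0GH 2 of 4 (Gbp2 and Gbp2b) were higher with no overlap, beside 2.95%, and 0 of 4 lower, beside 2.70%. The mean of the other 3 groups exceeded WT 0GH by 2.39 (SE 0.71), that of NLS 0GH by 2.07 and that of WT 1GH by 2.49 (SE 0.87 for each). Letter c was the lowest letter in each of the 4 groups, as it was for 3.80% of all features. With the letter as a block, which takes out such shifts, the SE of the 2.39 was 0.37, and that of the 4.11 of Gbp2 was 0.61. Within each letter WT 0GH was the lowest of the 4 groups for both Gbp2 and Gbp2b, which held for 1.76% of features. Gbp2b lay between the quartiles of the blank spots on all arrays of NLS 1GH and WT 1GH and on NLS 0GH of letter d. It lay below their first quartile on all WT 0GH arrays and on NLS 0GH of letters b and c. As for Gbp2, these positions do not show whether its transcript was present or absent.

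Gbp3 did not share this order. Its ratio was 4.81, 0.50 and 0.68 in NLS 1GH, 0.34 and 0.97 in NLS 0GH (c and d, with no value in b), 3.44, -0.31 and 0.77 in WT 1GH, and 0.11, 3.18 and 1.87 in WT 0GH. WT 0GH lay inside the range of the others, and the mean of the other 3 groups was 1.32, against 1.72 in WT 0GH. The 4.81 and 3.44 of letter b stood apart from the rest of their groups, and the difference of WT 1GH from WT 0GH was -0.42 over all arrays, -2.30 without letter b and 1.11 without letter c. With arrays or letters left out, the difference of the other 3 groups from WT 0GH ranged from -2.03 to 0.95, so its sign depends on which arrays are kept. The sequences of the probes are not in the files used here, so whether the Gbp2 and Gbp2b spots can bind each other's transcript was not tested.

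**Figure D1:**
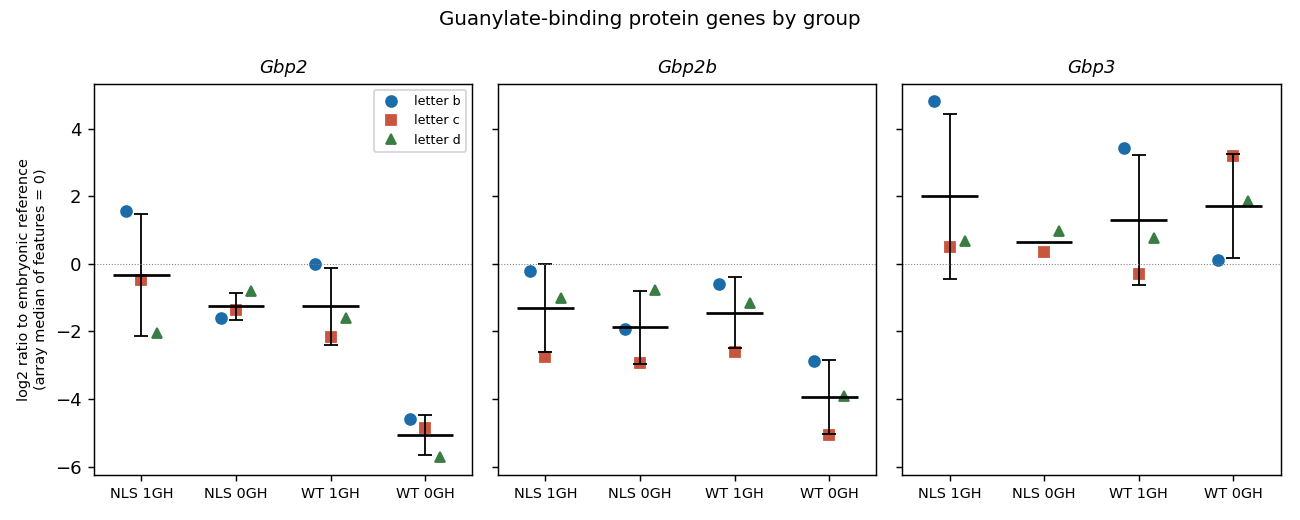
Log2 ratio to the embryonic reference (array median of the tested features at 0) of Gbp2, Gbp2b and Gbp3 in each array, by group, with letters b, c and d as circles, squares and triangles, group means as bars and SD where n = 3. The WT 0GH arrays of Gbp2 lie at -4.60 to -5.72 below all others, those of Gbp2b at -2.87 to -5.05, and those of Gbp3 among the other groups.

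Among 8706 other named genes, the 5 most like Gbp2 by the root mean square difference over the 12 arrays, after each gene's mean was subtracted, were Pafah1b2 (1.19), Gbp2b (1.25), Galnt18 (1.31), Galnt4 (1.34) and Zmynd10 (1.37). Pafah1b2 encodes a catalytic subunit of a platelet-activating factor acetylhydrolase, and the Galnt genes encode enzymes that start O-linked glycosylation. The median over named genes was 2.22. Irf1 stood at 2.26 and Irf8 at 2.93. This measure grows with a gene's own spread (SD over the arrays 2.36 for Irf1 and 1.59 for Irf8, against a median of 1.01), so a high value for such a gene does not show that its pattern is unlike that of Gbp2. Mean ratios in NLS 1GH, NLS 0GH, WT 1GH and WT 0GH were 1.56, 0.12, 0.76 and -1.75 for Pafah1b2, and -0.05, 0.01, 0.10 and -2.05 for Galnt4. Since the list was ranked on all 12 arrays, low values in WT 0GH are built into it.

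**Figure D2:**
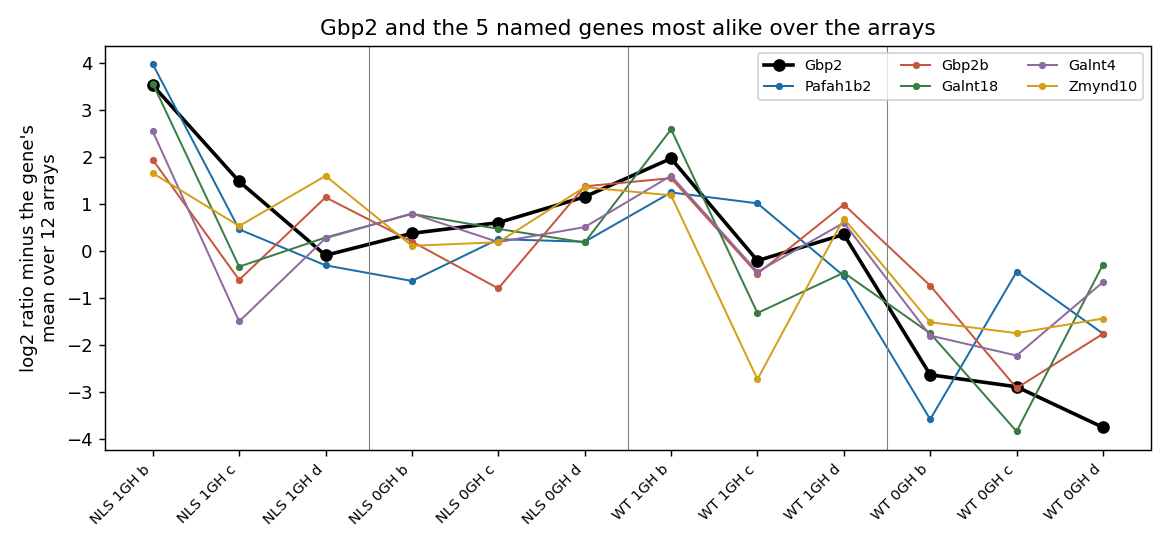
Ratio of Gbp2 (black) and of the 5 named genes most like it on each of the 12 arrays, as log2 units from the gene's own mean over the arrays. Grey lines part the groups and the coloured lines only join the points of a gene. Gbp2b ranks second of 8706 genes, at a root mean square difference of 1.25.

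Irf1 encodes an activator of transcription that interferon gamma induces. Its ratio was 3.22, 0.42 and 1.01 in NLS 1GH, 6.27, -1.34 and 2.93 in NLS 0GH, 3.23, -0.33 and 0.05 in WT 1GH, and 1.80, -2.23 and 0.06 in WT 0GH. In each group letter b was highest and letter c lowest, an order that 0.901% of features showed in all 4 groups. The letters accounted for 66.9% of the sum of squares over the 12 arrays and the groups for 19.3%, against medians of 24.7% and 23.1% over all features. For Gbp2 the shares were 8.50% for letters and 79.7% for groups, and for Gbp2b 36.7% and 56.4%. Irf1 had the lowest group mean in WT 0GH as well, at -0.12 ± 2.02, against 1.55 ± 1.47 in NLS 1GH, 2.62 ± 3.82 in NLS 0GH and 0.98 ± 1.96 in WT 1GH (SD, n = 3). The groups overlapped, and 24.0% of features had their lowest mean in WT 0GH. The other 3 exceeded WT 0GH by 1.84, with an SE of 1.49 without the letter as a block and 0.72 with it. Set against the WT 0GH array of its own letter, Irf1 was higher on 8 of the 9 other arrays, the exception being WT 1GH of letter d at -0.016. At least 8 of 9 were higher for 7.40% of features.

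Irf8 encodes a factor needed for myeloid development and also active in B lymphoid cells. It stood at -0.12, -2.43 and 0.77 in NLS 1GH, 0.50, -3.23 and -1.36 in NLS 0GH, 1.37, -0.76 and 0.92 in WT 1GH, and -0.48, 0.43 and 2.29 in WT 0GH. WT 0GH had the highest mean, so the order was unlike that of Gbp2, and all groups overlapped. NLS 0GH was lower than WT 0GH by -2.11 (SE 1.15), a value that ranged from -3.66 without letter b to -1.18 without the NLS 0GH array of letter c.

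Irf7 encodes the factor that amplifies type I interferon production, and no array of letter b had a value for it. In letters c and d it was -0.74 and 1.01 in NLS 1GH, -2.92 and -1.98 in NLS 0GH, 0.89 and -0.94 in WT 1GH, and 1.01 and 1.42 in WT 0GH. Both NLS 0GH arrays lay below the other 6, as they did for 5.58% of the 12719 features with values on these 8 arrays, and 16.1% had some group wholly below the rest. The difference of NLS 0GH from WT 0GH was -3.67 over these 4 arrays. Between WT 1GH and WT 0GH it was -1.24, with -0.12 in letter c and -2.36 in letter d.

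The promoters of Ifit3 and Irf8 are shown as examples of a window with 2 separate cores and of one with 2 GAS elements. Capitals mark the response element core in Ifit3 (chr19:34583279-34583528) and the GAS letters in Irf8 (upstream start, chr8:120736108-120736357), both GRCm38.p6 from RefSeq and on the plus strand.
Ifit3: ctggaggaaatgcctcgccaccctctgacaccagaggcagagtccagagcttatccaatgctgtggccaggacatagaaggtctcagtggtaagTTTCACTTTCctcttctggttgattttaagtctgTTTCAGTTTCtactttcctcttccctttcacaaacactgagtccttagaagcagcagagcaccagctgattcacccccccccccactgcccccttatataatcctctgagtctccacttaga
Irf8: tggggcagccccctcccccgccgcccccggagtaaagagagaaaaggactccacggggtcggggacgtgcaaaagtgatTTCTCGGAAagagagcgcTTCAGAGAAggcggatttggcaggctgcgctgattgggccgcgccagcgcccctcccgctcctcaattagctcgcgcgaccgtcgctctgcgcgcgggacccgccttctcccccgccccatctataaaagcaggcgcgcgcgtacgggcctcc
RefSeq promoters were matched for 9 of the 10 genes, and the core was found in 6 of them, Gbp2, Gbp2b, Gbp3, Ifit1, Ifit3 and Isg15. Isg15 held the most, 3 overlapping cores, and Ifit1, Ifit3 and Gbp3 held 2 each. Both Ifit genes held TTTCACTTTC, the letters seen in Gbp2 and Gbp2b, beside TTTCAGTTTC. The GAS letters were found for Irf1 (TTCCCCGAA) and Irf8 (TTCTCGGAA and TTCAGAGAA). Gbp3, Irf1 and Irf8 had a second start, whose windows held neither motif. By window, 6 of 12 held the core, beside 2.98% of all promoter windows. Since the genes were picked as interferon response genes, a high share of this core is not independent of the choice. The GAS letters were in 2 of 12, beside 7.02%.

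Ifit1 and Ifit3 belong to the proteins that bind foreign RNA, and in human cells IFIT3 is known to stabilise IFIT1. Ifit3 had ratios of -1.17, -1.14 and 3.90 in NLS 1GH, 3.35, 0.54 and 3.24 in NLS 0GH, -1.0 and 1.59 in WT 1GH (c and d, none in b), and -1.53, 0.12 and 3.17 in WT 0GH. Letter d exceeded letter c in each group, by 5.04 in NLS 1GH, 2.69 in NLS 0GH, 2.59 in WT 1GH and 3.05 in WT 0GH. Irf8 did the same, by 3.19, 1.87, 1.68 and 1.86 in that order of groups. So did Gbp2b and Irf1, which makes 4 of the 7 genes with values on the 8 arrays of c and d, beside 12.1% of the 12719 features with such values. For Ifit3 the mean of the other 3 groups was 1.07, against 0.59 in WT 0GH, a difference of 0.48 well inside the spread of the arrays. Ifit1 had a value on only 2 arrays, -1.72 in NLS 1GH and -0.0027 in WT 0GH, both of letter d.

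Isg15 encodes a ubiquitin-like protein that interferon induces and that ligases attach to many targets, and it had a value on 6 arrays. The ratio was 2.37 in NLS 1GH, 4.69, -4.08 and 1.69 in NLS 0GH, -1.13 in WT 1GH and 3.98 in WT 0GH, where each lone value is that of letter d. The NLS 0GH arrays alone enclosed all the others. Cxcl11 encodes a chemokine that draws activated T cells through the receptor Cxcr3. It stood at -3.65 and 1.42 in NLS 1GH (c and d), 0.45, -4.04 and 0.49 in NLS 0GH, and -0.86 in WT 0GH (d), with no value in WT 1GH. For Isg15 and Cxcl11 no comparison with WT 0GH is possible beyond 1 array.

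**Figure D3:**
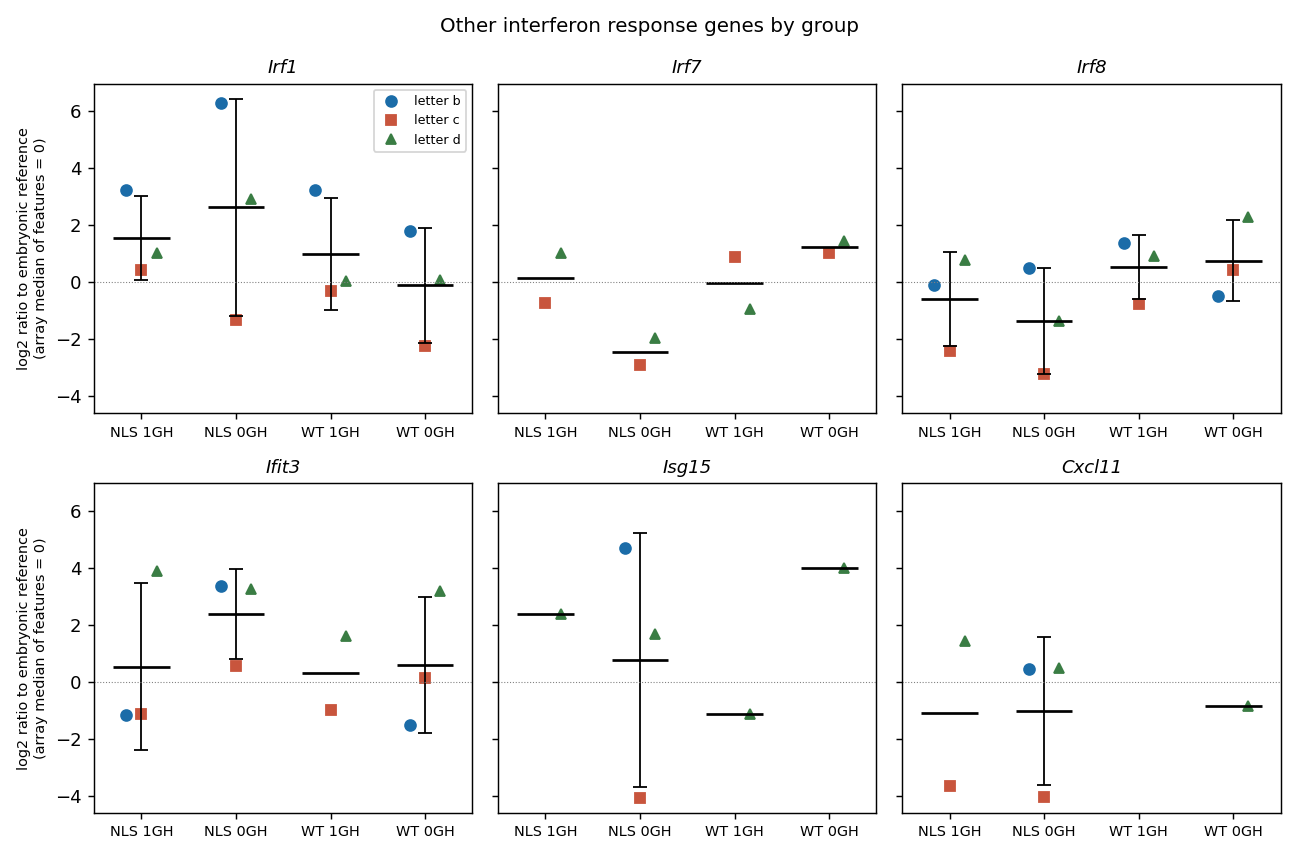
Log2 ratio to the embryonic reference (array median of the tested features at 0) of Irf1, Irf7, Irf8, Ifit3, Isg15 and Cxcl11 in each array, by group, with the symbols of the guanylate-binding protein plot. Bars are means, SD is drawn where n = 3, and missing points are arrays without a value. Irf1 has letter b highest and letter c lowest in all 4 groups, and Ifit3 has d above c in each.

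The comparison of NLS 1GH with WT 1GH asks how the receptor forms differ, with no WT 0GH array in the difference itself. The WT 0GH arrays still enter the shared estimate of the spread. Values of the other groups were also in view when the genes were chosen, so these p-values are not independent of that choice. None of the 4 genes in the fit passed the threshold of 0.05. The difference was 0.93 (SE 0.87) for Gbp2, 0.14 (SE 0.87) for Gbp2b, 0.57 (SE 1.83) for Irf1 and -1.10 (SE 1.15) for Irf8, each with an adjusted p of 0.999 in limma with Benjamini-Hochberg adjustment over all features. With the letter as a block the SEs were 0.75, 0.45, 0.88 and 0.87 in that order of genes, and none passed. By letter b, c and d, Gbp2 gave 1.56, 1.69 and -0.44, so the signs differed. Without the NLS 1GH array of letter b its difference was -0.011. With at least 2 values per group, Gbp3 was at 0.68 (SE 1.36), Ifit3 at 0.15 (SE 1.86) and Irf7 at 0.09 (SE 0.95), with a limma adjusted p of 1.0 for each. All 3 changed sign with arrays or letters left out, over -0.71 to 1.77 for Gbp3, -1.45 to 1.53 for Ifit3 and -1.63 to 1.95 for Irf7 as differences of group means. Of all 10762 features limma called 0 (0%), with 376 (3.49%) at an unadjusted p under 0.05, and in the wider fit 3.52% of features were under 0.05. In 0 of 4 genes were the groups without overlap, beside 4.48% of features higher and 4.24% lower.

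NLS 1GH against NLS 0GH sets the GH numbers side by side in the NLS form. None of the 4 passed here either. Gbp2 was at 0.93 (SE 0.87), Gbp2b at 0.56 (SE 0.87), Irf1 at -1.07 (SE 1.83) and Irf8 at 0.78 (SE 1.15), with a limma adjusted p of 1.0 for each. By letter Gbp2 gave 3.15, 0.88 and -1.24. With the letter as a block the SEs of the 4 genes were again 0.75, 0.45, 0.88 and 0.87, and none passed. In the fit with at least 2 values per group Irf7 was at 2.48 (SE 0.95, unadjusted p = 0.0385, limma adjusted p = 1.0), higher in both letters that had values, where 3.45% of features had an unadjusted p under 0.05. Gbp3 was at 1.22 (SE 1.53) and Ifit3 at -1.91 (SE 1.66) in that fit. Of all 10762 features 0 (0%) passed and 314 (2.92%) had an unadjusted p under 0.05 in limma. In 0 of 4 genes were the groups without overlap, beside 3.87% of features higher and 3.43% lower. The design has 3 arrays a group, and an SE near 0.87 for Gbp2 leaves differences as large as its 0.93 within the error.

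**Figure D4:**
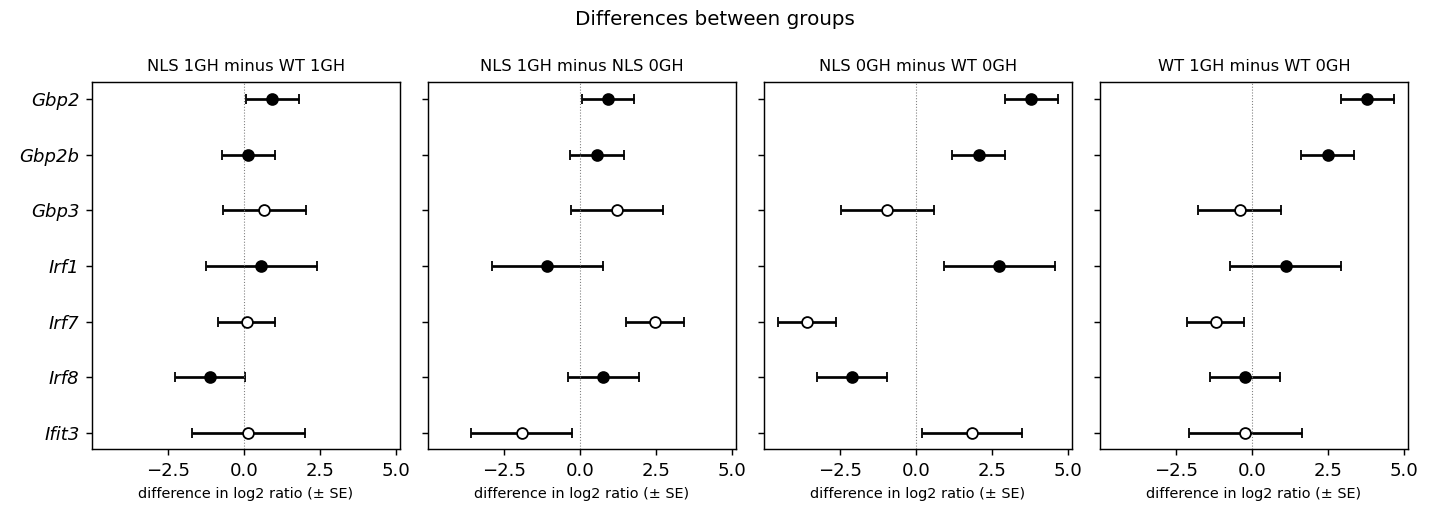
Difference in log2 ratio between groups with the limma SE for 7 of the 10 genes. Filled points come from the fit on features with values on all 12 arrays and open points from that with at least 2 values per group. Gbp2 stands at 3.80 over WT 0GH for NLS 0GH and for WT 1GH, and at 0.93 in both panels whose difference leaves WT 0GH out.

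The wider interferon pathway was covered by 6 lists of 170 genes, of which 128 had a spot and 73 a value on all 12 arrays. In limma 0 of the 73 passed in either direction in NLS 1GH against WT 1GH and 0 in NLS 1GH against NLS 0GH. At an unadjusted limma p under 0.05 there were 3 and 0 of the 73, beside 3.49% and 2.92% of all features. The 3 were Ifi35 at 1.82 (SE 0.77), Sp100, a nuclear body protein, at -3.32 (SE 1.20), and Ifitm2, a membrane protein that blocks virus entry, at 1.19 (SE 0.40), the last named after its value was seen. In the first comparison the median difference was -0.91 for the 8 ligands and receptors, -0.11 for the 13 signalling and IRF factors, 0.07 for the 5 other GTPases, 0.14 for the 26 other type I response genes, -0.34 for the 9 antigen presentation genes and -0.01 for the 12 other chemokines and effectors, beside -0.05 for all features. All 9 antigen presentation genes lay below 0, from Tap2, a peptide transporter subunit, at -0.05 (SE 0.89) to Psmb10, an immunoproteasome subunit, at -0.87 (SE 0.95), and 46.8% of all features lay above 0. Each of the 9 lay within 2 SE of 0. Their side of 0 also depends on the centring, since without it the median difference of all features was 0.35. Ligands and receptors ran from Ifna4 at 1.48 (SE 1.0) to Ifna11 at -1.84 (SE 1.16). Among signalling genes Pias1, a STAT inhibitor, was at 0.71 (SE 0.91) and Ifih1, a sensor of viral RNA, at -0.79 (SE 0.58). Casp4, an inflammatory caspase, was at 1.38 (SE 0.90) and the chemokine receptor Ackr3 at -1.02 (SE 1.09).

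In NLS 1GH against NLS 0GH the medians were -0.33, -0.22, -0.26, -0.12, -0.13 and 0.06 in the same order of lists, beside -0.04 for all features. Ifnb1, a type I interferon, was at 2.42 (SE 2.24) and Il10rb, a receptor chain of the interferon lambda family, at -1.73 (SE 0.78). Myd88, an adaptor of Toll-like receptors, was at 0.34 (SE 0.75) and the kinase Tyk2 at -1.03 (SE 0.53). Samhd1, an antiviral dNTP hydrolase, was at 1.19 (SE 0.92), Lgals3bp at -1.04 (SE 0.63), Tap1 at 0.42 (SE 0.86), Psmb10 at -0.62 (SE 0.95), the chemokine Ccl7 at 1.04 (SE 0.50) and the nitric oxide synthase Nos2 at -0.37 (SE 0.62).

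The other interferon-induced GTPases differed less from WT 0GH than Gbp2 did, and in both directions. Against WT 0GH the mean of the other 3 groups differed by 0.73 (SE 0.59) for Igtp, 0.70 (SE 0.97) for Irgm2, 0.25 (SE 0.30) for Ifi47, 0.05 (SE 0.30) for Mx1 and -0.41 (SE 0.66) for Iigp1, beside 4.11 for Gbp2. So 4 of 5 lay above 0, beside 49.9% of all features. Ifi47 had its lowest mean in WT 0GH, with 0.18 in NLS 1GH, 0.44 in NLS 0GH, 0.11 in WT 1GH and -0.0039 in WT 0GH. Igtp averaged 0.49 in NLS 1GH, 0.78 in NLS 0GH, -0.60 in WT 1GH and -0.50 in WT 0GH, and was lowest in WT 0GH in letters c and d. Mx1, an antiviral dynamin-like GTPase, stayed between -0.34 and 0.51 on all 12 arrays, with 0.36, 0.47 and -0.15 in NLS 1GH, -0.34, 0.28 and -0.13 in NLS 0GH, 0.32, 0.51 and -0.20 in WT 1GH, and 0.33, 0.06 and -0.17 in WT 0GH. Igtp, an immunity-related GTPase, was at 1.09 (SE 0.72) in NLS 1GH against WT 1GH, the highest of the 5. Irgm2, of the same family, was the lowest at -1.51 (SE 1.19), and at -2.35 (SE 1.19) in NLS 1GH against NLS 0GH, where Mx1 was the highest at 0.29 (SE 0.36).

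**Figure D5:**
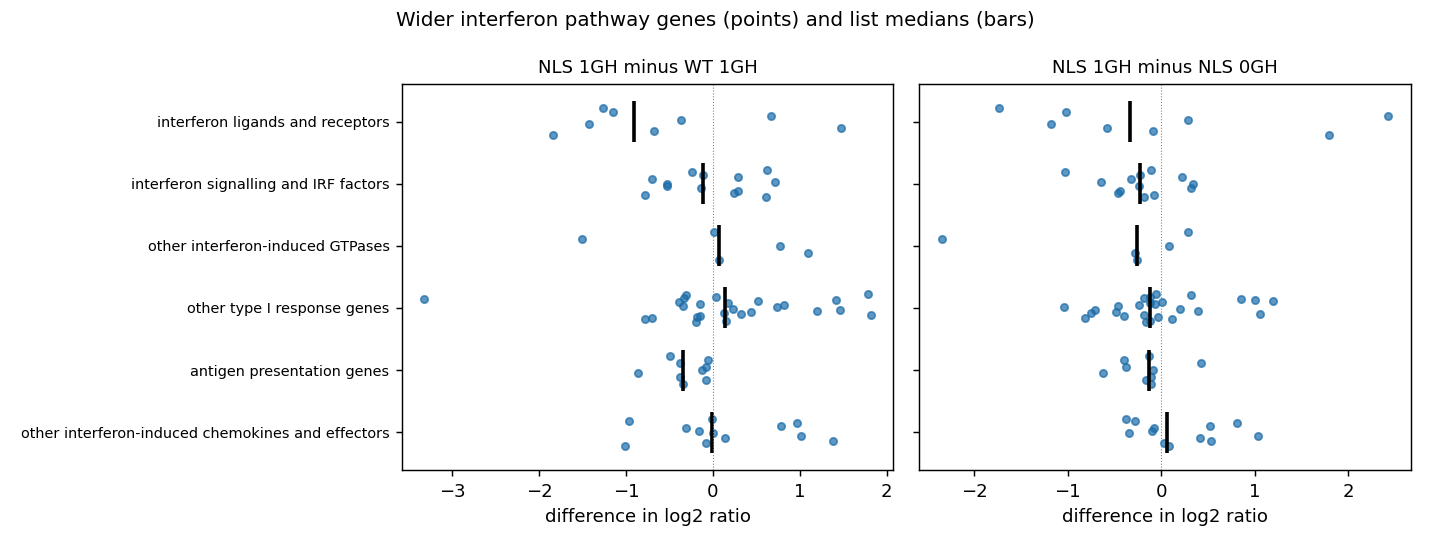
Difference in log2 ratio of each measured gene of the 6 wider interferon lists (points) and the list median (bar), for NLS 1GH minus WT 1GH and NLS 1GH minus NLS 0GH. The 9 antigen presentation genes lie between -0.87 and -0.05 in the first comparison, and no point passed the limma threshold.

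Marker lists of blood cell types were measured beside these genes. The mean ratio of the macrophage and dendritic markers (4 of 13 on all arrays) ran from -1.97 to -0.26 in NLS 1GH, -0.25 to 0.42 in NLS 0GH, -0.92 to -0.14 in WT 1GH and -0.87 to -0.28 in WT 0GH, and the lowest and highest WT 0GH arrays lay inside the range of the others. That of the T and NK markers (5 of 14) ran from 0.56 to 1.55, 0.68 to 1.60, 0.93 to 1.95 and 0.68 to 1.33 in the same order, and that of the B lymphoid markers (10 of 13) from -0.26 to 1.32, -0.56 to 0.98, -0.67 to 1.04 and 0.08 to 0.86. The 4 macrophage and dendritic markers were unlike one another. Lyz2 averaged -3.11, -1.05, -2.22 and -2.16 in the same order, and Cd14 -1.28, 0.17, -0.18 and -0.43. Mpeg1 averaged 0.60, 0.41, 0.63 and 0.45, and Fcgr1 0.32, 0.75, -0.37 and -0.36. In the T and NK list Klrd1 stood far above the others, at 5.50, 5.10, 5.98 and 5.13 in the same order. Ncr1 lay below 0, at -2.02, -1.79, -0.60 and -1.52, and Cd4, Cd8a and Cd8b1 averaged between 0.02 and 0.86. Single B lymphoid markers went opposite ways, chosen here after their values were seen. Ms4a1, the surface protein CD20, averaged 0.59 in NLS 1GH, -2.52 in NLS 0GH, -0.85 in WT 1GH and 1.23 in WT 0GH. Pax5, the B lineage factor, averaged 0.64, 0.08, -0.64 and 1.48 in that order of groups, and the kinase Blk -2.23, -4.13, -2.74 and -4.45. Their part in the Gbp2 values was not tested.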

How the data were processed

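The 12 mouse RNA samples carried Cy3 and the embryonic reference carried Cy5 on each array, per the labels. The values deposited by the authors are read as log2 ratios of the channels, with the base inferred from their range. Per the series' design text the authors fitted a Lowess curve over 50% of the data and raised control channel values under 200 to 200. The labels name no scanner or background method. Intensities were not analysed here. The number of arrays, the noise of single spots and missing values limit the precision.

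From these values 902 control spots were left out, the sign was turned (between 77.1% and 89.7% of embryonic tissue genes then lay below the median of each array), spots of a gene with values on all 12 arrays were averaged, and each array was centred on its median, since these medians ran from -0.52 to 1.46. Symbols came from the platform annotation (142 spots with several symbols were not named, 16249 matched RefSeq by Entrez identifier). Differences were fitted with limma 3.58.1 (lmFit, eBayes) in R 4.3.3 on all 12 arrays without a block, two-sided, with Benjamini-Hochberg adjustment over 10762 features and a threshold of 0.05. 

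The members, lists and tests were chosen with earlier results of these data known. Named genes were the members, the genes of each list past the threshold or, with none, the highest and lowest difference per list and comparison, and the 5 genes most like Gbp2. Per the labels, each letter has 1 red dye density, namely 19.3 bp per dye for b, 19.8 for c and 17.9 for d. A letter may thus mark a shared labelling of the reference, but the labels do not say what the letters are. The green dye density of the samples differed by array. In letters b, c and d it was 15.5, 12.8 and 13.3 bases per dye in NLS 1GH and 16.0, 13.7 and 15.1 in NLS 0GH. It was 15.6, 19.2 and 15.8 in WT 1GH and 16.0, 14.2 and 15.3 in WT 0GH. NLS 1GH was lowest in each letter, and any effect of this on the ratios was not tested. Deviations from group means correlated across features between 0.043 and 0.263 for 18 pairs of arrays of the same letter. For 36 pairs of different letters the range was -0.187 to 0.066. Deviations sum to 0 within a group, so these ranges are not independent of each other. The alternatives were the letter as a block, quantile normalization, arrays not centred, a filter of at least 2 values per group (15115 features), spots not averaged, ratios limited to the 8.36 log2 units of a 16-bit scanner over the floor, a robust prior, and leaving out each array or letter.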

Additional observations from a re-analysis of the deposited data

Results flagged for a closer look

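Irf7 differed in sign between the receptor forms when 1GH is set against 0GH. As 1GH minus 0GH it was 2.59 in NLS (2.18 in letter c and 3.0 in letter d) and -1.24 in WT (-0.12 and -2.36), a difference of 3.83 between the forms. Letter b had no value. The difference was not tested, since it rests on the WT 0GH arrays and 2 letters.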

How the results depend on the processing

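In both tested comparisons 0 features and 0 genes of the wider lists passed limma's threshold under every alternative run, including the replicate block, where 565 features (NLS 1GH against WT 1GH) and 470 (NLS 1GH against NLS 0GH) had an unadjusted p under 0.05, against 376 and 314 without it. Leaving out arrays or letters gave 255 to 588 and 245 to 557. The block changed no call. Without centring the median difference of all features was 0.35 and 0.27, and 215 of 234 and 213 of 234 unadjusted p-values under 0.05 belonged to higher features, against 218 of 376 and 184 of 314 with centring. Gbp2b in NLS 1GH against WT 1GH was -0.053 after quantile normalization. The members that did not overlap WT 0GH, on the higher side, were 1 of 4 for all other arrays (2 with quantile normalization and 2 with at least 2 values per group, 1 to 2 with arrays left out), 1 of 4 for NLS 0GH (2 and 2, 1 to 3) and 2 of 4 for WT 1GH (1 without centring, 2 with any array left out). The arrays whose loss moved these counts were NLS 0GH of letter c and WT 0GH of letter b, and so did the loss of letter b or c. The cause was not tested. With arrays or letters left out, NLS 1GH against WT 1GH ranged from -0.011 to 1.80 for Gbp2, -0.45 to 0.86 for Gbp2b and -0.27 to 1.69 for Irf1. NLS 1GH against NLS 0GH ranged from -0.18 to 2.01 for Gbp2, -0.026 to 1.28 for Gbp2b, -3.05 to 0.76 for Irf1 and -0.16 to 1.71 for Irf8. Gbp2 against WT 0GH kept its sign throughout, at 3.78 to 4.41 for the other 3 groups.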

Other observations

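For the other 3 groups against WT 0GH, the medians of the wider lists lay between -0.27 and 0.25, and single genes went both ways. By list the median difference was -0.27 for ligands and receptors, 0.24 for signalling and IRF factors, 0.25 for the other GTPases, -0.01 for other type I response genes, 0.07 for antigen presentation genes and -0.05 for other chemokines and effectors, beside -0.0019 for all features. Of the 73 genes 2 were higher outside WT 0GH by over 2 SE and 5 lower, beside 2.42% and 2.63% of all features. These 7, named after their values were seen, were Ptpn6 at 1.42 (SE 0.57) and Rsad2 at 0.87 (SE 0.34), and on the lower side Il10rb at -1.98 (SE 0.64), Ifih1 at -1.21 (SE 0.47), Ifna11 at -2.13 (SE 0.94), Cxcl10 at -1.15 (SE 0.55) and Il12b at -1.91 (SE 0.85). In WT 1GH against WT 0GH 8 of 9 antigen presentation genes lay above 0, with a median of 0.17, beside 52.5% of all features. The same WT 1GH arrays enter NLS 1GH against WT 1GH with the opposite sign, so the 2 counts are not independent. These are values without a test.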
